A study of Homo sapiens with 12 samples.

Results

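The kinesin motor family was followed in HK-2 cells, an immortalised line of human renal proximal tubule epithelium, after exposure to CdCl, as the labels spell the compound, or to its control vehicle. Members were all genes whose probe sets carry exactly 1 gene symbol made of KIF and a number, which gave 42 of the 19775 genes on the array, measured by 86 probe sets. Of these genes, 38 encode a kinesin and 4 are antisense RNAs named after one (KIF9-AS1, KIF1C-AS1, KIF25-AS1 and KIF23-AS1).

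The 12 Affymetrix arrays fell into 4 groups of 3, exposed to CdCl or to control for 12 h or for 48 h. All 12 came from the same cell line, grown in defined medium with epidermal growth factor and treated when nearly confluent a day after seeding, and the labels call the replicates biological. The labels do not state the dose of CdCl. The series belongs to a study that sought expression signatures of kidney toxicity. Values are GCRMA log2 signals, so a difference of 1 is a 2-fold change, and levels are compared within a gene and not between genes.

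Kinesins are motor proteins that use ATP to move along microtubules or to take microtubule ends apart. Mitotic kinesins build the bipolar spindle, align and separate the chromosomes and complete cytokinesis, and their transcripts are known to peak in the G2 and M phases of the cell cycle. Transport kinesins carry vesicles, mitochondria, endosomes and ciliary cargo through cells that need not divide. In a tubule cell line, the first class follows proliferation and the second serves epithelial trafficking and the primary cilium.

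For each gene the probe set of highest mean was used, and a gene was tested when its signal was above 4 on at least 3 arrays. This left 25 of the 42 members: 11 of 12 mitotic kinesins, 9 of 13 transport kinesins and 5 of 13 kinesins with other or less settled roles. The 17 members that were not tested had no array above 4, and their highest signals ran from 1.86 to 3.51. KIF2B was the untested mitotic member, and KIF1A, KIF5A, KIF5C and KIF17, motors best known from neurons and, for KIF17, cilia, were the untested transport members. The 4 antisense RNAs were not tested either. KIF4A has a near-identical retrogene copy, KIF4B, that is not analysed here, so its signal may hold both.

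The arrays had medians of 2.97 to 3.04. Correlations over all probe sets except controls were 0.9965 to 0.9982 within groups and 0.9731 to 0.989 between groups. Markers of renal epithelium were present (5 of 6, with PAX8 at 9.34 to 9.73), whereas the 6 defining proximal tubule genes measured (LRP2, CUBN, AQP1, SLC34A1, GGT1 and ANPEP) were all below the filter on every array, at 3.38 or less. Of markers for other cell types, 1 of 4 fibroblast genes (COL1A1, 7.05 to 7.99), 1 of 3 distal and collecting duct genes (AQP2, 4.09 to 4.56), 0 of 4 endothelial genes and 0 of 3 leukocyte genes passed it. The poly-A spike-in signal averaged 7.00 ± 0.04 in CdCl 12 h arrays and 6.53 ± 0.13 in control 12 h arrays, and at 48 h it averaged 6.31 ± 0.49 with CdCl and 6.14 ± 0.10 with control (SD, n = 3 each). Its part in the results below was not tested.

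After 12 h of CdCl, all 11 tested mitotic kinesins fell, 6 of them by 2-fold or more, and their median log2 change was -1.03. In the same comparison 39.7% of the 10683 genes tested were lower and 16.7% were higher, with a median log2 change of -0.16 over all of them (limma, Benjamini-Hochberg adjusted p under 0.05). In bulk RNA, fewer cells in a given state and less RNA per cell cannot be told apart. Because all genes together leaned downwards at 12 h, the fit was repeated after centring each array on the median of the tested genes, a setting chosen after seeing the data. Lower genes then made up 52.1% of those called, against 70.4% without it, and 26.5% of genes tested were lower. All 11 also had every CdCl array below every control array, which held for 46.6% of genes tested, with 19.8% wholly above. After the centring the mitotic count was 10 of 11, with a median of -0.88, and KIF18A was the member lost.

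KIF15, a spindle motor that can take over from KIF11, had the largest fall at 12 h. Its signals were 5.51, 5.68 and 5.56 in CdCl cells and 6.89, 7.04 and 7.28 in control cells. It was 2.81-fold lower, with a log2 change of -1.49 ± 0.11 (SE, adjusted p 9.25e-07). The CdCl arrays lay more than 1 log2 unit under every control array.

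KIF22, a chromokinesin that pushes chromosome arms away from the spindle poles, had 7.04, 7.03 and 6.60 in CdCl cells and 8.31, 8.22 and 8.28 in control cells. Its log2 change was -1.38 ± 0.22 (SE, adjusted p 0.000279). The groups did not overlap, but a second probe set for KIF22 gave -0.03 (adjusted p 0.942), so the fall was seen by only 1 of its probe sets.

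KIF18B, which shortens astral microtubules, had 7.61, 7.47 and 7.64 in CdCl cells and 8.93, 8.97 and 8.83 in control cells, a log2 change of -1.34 ± 0.12 (SE, adjusted p 2.6e-06). KIF4A, a chromokinesin of the anaphase midzone, had 8.15, 8.28 and 8.22 in CdCl cells and 9.28, 9.42 and 9.42 in control cells, a log2 change of -1.15 ± 0.08 (SE, adjusted p 7.11e-07). For both genes the 3 CdCl arrays sat close together and well under the control arrays.

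KIF20A, which brings Aurora B to the midzone before cytokinesis, had 8.76, 8.71 and 8.77 in CdCl cells and 9.83, 9.89 and 9.85 in control cells. Its log2 change of -1.11 ± 0.06 had the smallest standard error of the mitotic members (adjusted p 1.01e-07). KIF14, a midbody motor, was the sixth member past 2-fold, at -1.03 ± 0.12 (adjusted p 2.8e-05).

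The other 5 mitotic members fell by less than 2-fold. KIF11, the plus-end motor that pushes the spindle poles apart, changed by -0.96 ± 0.10 (SE, adjusted p 7.27e-06). KIF23, the motor of the centralspindlin complex, changed by -0.92 ± 0.15 (SE, adjusted p 0.000325), with its 3 CdCl arrays spread between 7.90 and 8.55. KIF20B, another cytokinesis motor, and KIF2C, the depolymerase that corrects faulty kinetochore attachments, changed by -0.79 and -0.73. KIF18A, which damps chromosome movement at the metaphase plate, had the smallest log2 change, -0.45 ± 0.14 (SE, adjusted p 0.0182). Its call was lost without CdCl 12 h replicate 2 (adjusted p 0.0727) or without control 12 h replicate 1 (adjusted p 0.0761).

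**Figure D1:**
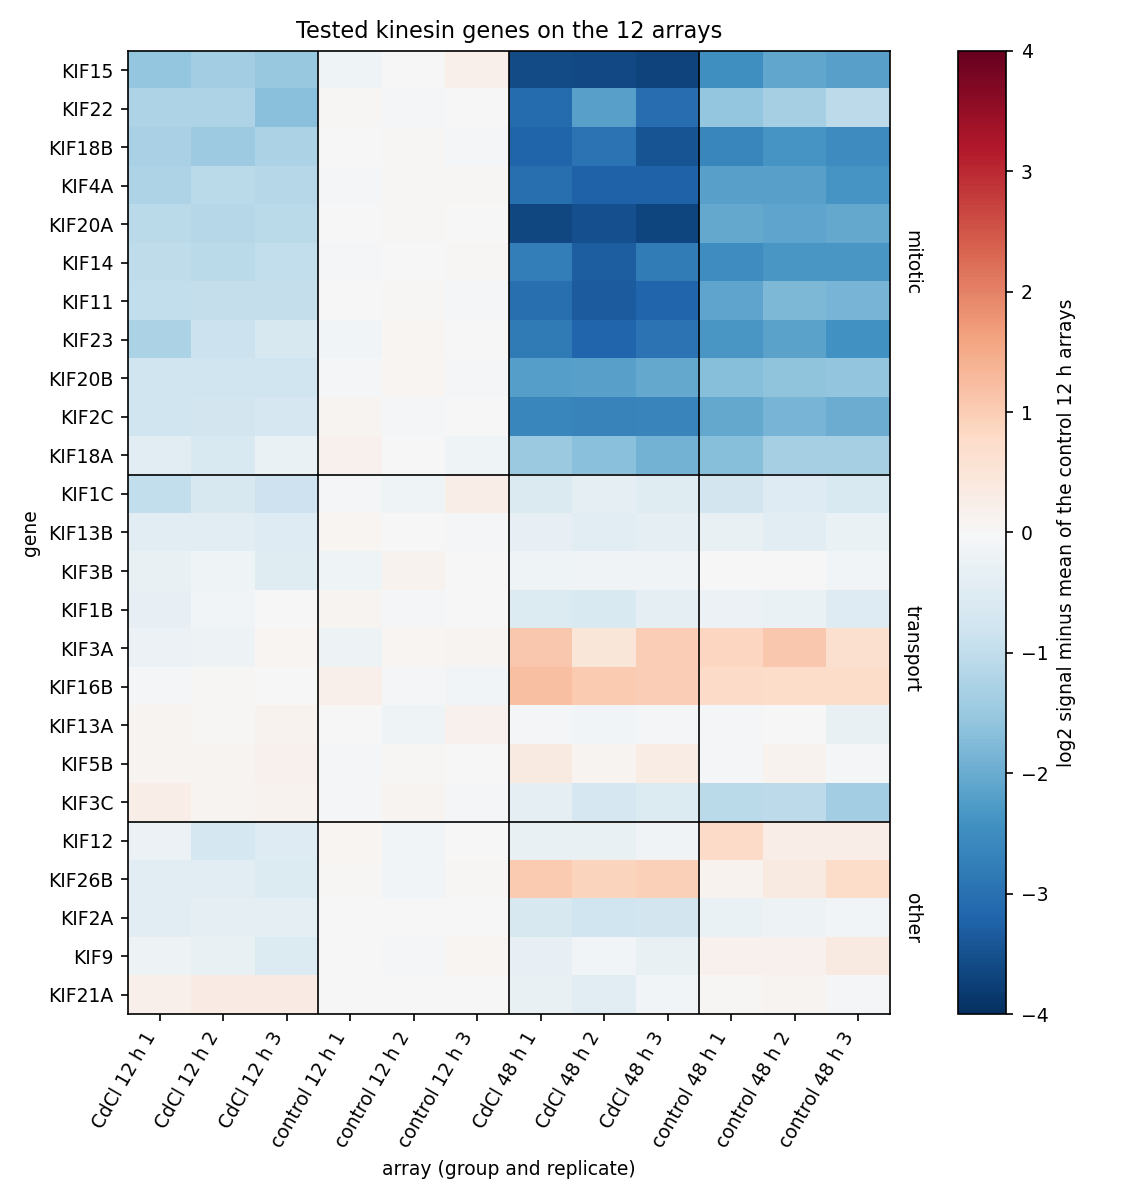
Log2 signal of the 25 tested kinesin genes (rows, by class) on the 12 arrays (columns), each minus that gene's mean over the control 12 h arrays. The mitotic rows are lower on the CdCl than on the control arrays at each time, except that KIF18A overlaps at 48 h, whereas the transport rows stay near 0 apart from single genes.

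The promoters of several mitotic members hold sequences that are known from cell cycle genes, and they are shown because these genes moved together. The search covered the RefSeq promoters of build GRCh38.p14, 250 bases before to 50 after the start, which were listed for 23 of the 25 tested kinesins. The motifs were TTTGAA, the core of the cell cycle homology region, and CCAAT, the box bound by the factor NF-Y, on both strands. The printed stretches are the 120 bases before the start, read 5′ to 3′ on the strand of the gene, with matches on either strand in capitals. A match on the other strand reads TTCAAA for the first motif and, for the CCAAT box, ATTGG. KIF11 lies at chr10:92593010-92593129 (plus), KIF15 at chr3:44761674-44761793 (plus), KIF18A at chr11:28108157-28108276 (minus), KIF23 at chr15:69414229-69414348 (plus), KIF4A at chrX:70289984-70290103 (plus) and KIF20A at chr5:138178992-138179111 (plus). The transport kinesins KIF16B at chr20:16573449-16573568 (minus) and KIF3C at chr2:25982498-25982617 (minus), both without a match, are given for contrast. Not every member followed this contrast: the mitotic KIF2C, which also fell, held neither motif, and the transport KIF5B held both.
KIF11: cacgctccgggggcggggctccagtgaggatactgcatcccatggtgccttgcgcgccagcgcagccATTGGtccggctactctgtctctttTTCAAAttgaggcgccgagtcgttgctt
KIF15: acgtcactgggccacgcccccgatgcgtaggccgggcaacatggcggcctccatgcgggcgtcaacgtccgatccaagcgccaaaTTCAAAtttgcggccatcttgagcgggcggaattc
KIF18A: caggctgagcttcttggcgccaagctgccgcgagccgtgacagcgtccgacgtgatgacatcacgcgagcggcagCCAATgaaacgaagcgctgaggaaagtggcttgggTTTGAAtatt
KIF23: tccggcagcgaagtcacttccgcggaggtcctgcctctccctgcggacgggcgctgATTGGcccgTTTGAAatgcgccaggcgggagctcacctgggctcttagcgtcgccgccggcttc
KIF4A: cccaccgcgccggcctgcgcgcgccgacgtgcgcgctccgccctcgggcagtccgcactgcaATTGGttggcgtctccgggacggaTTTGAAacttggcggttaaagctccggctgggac
KIF20A: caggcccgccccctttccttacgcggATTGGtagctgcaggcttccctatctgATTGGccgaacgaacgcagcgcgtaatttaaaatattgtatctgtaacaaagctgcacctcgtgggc
KIF16B: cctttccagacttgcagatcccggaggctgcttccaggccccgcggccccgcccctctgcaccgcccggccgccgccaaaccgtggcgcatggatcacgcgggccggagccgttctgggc
KIF3C: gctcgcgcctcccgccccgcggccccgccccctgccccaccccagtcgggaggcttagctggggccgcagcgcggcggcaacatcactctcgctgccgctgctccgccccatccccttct

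Shares were counted per gene, a gene with several listed promoters holding a motif when any of them did. TTTGAA was found for 8 of the 11 mitotic genes (72.7%), against 1 of 8 transport genes (12.5%, KIF5B), 0 of 4 other kinesins, 18.2% of all 27305 genes listed and 13.7% of the 8864 tested genes among them. Per promoter, the share was 15.2% of 35116. The 8 were KIF11, KIF14, KIF15, KIF18A, KIF18B, KIF20B, KIF23 and KIF4A. In KIF11, KIF15 and KIF4A the match began 28, 35 and 34 bases before the start, in KIF18A 10 and in KIF23 55. In KIF14, KIF18B and KIF20B it lay after the start. CCAAT was found for 9 of 11 mitotic genes (81.8%) and 3 of 8 transport genes (37.5%), against 39.7% of all genes listed and 44% of tested genes. Both motifs were found for 7 of 11 mitotic genes (63.6%) and 1 of 8 transport genes, against 7.26% of all genes listed and 5.74% of tested genes. KIF20A, which fell with the rest, had 2 CCAAT matches in the printed stretch and no TTTGAA in its promoter. A match of these letters is a description of the window and not a binding site.

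The transport kinesins differed little between CdCl and control cells at 12 h. Of the 9 tested, 3 fell, 0 rose and 6 did not pass, where 39.7% of all genes were lower and 16.7% higher. The transport median log2 change of -0.12 was near that of all genes, -0.16. The median of the mitotic members lay 0.91 log2 units under that of the transport members. After centring on the tested genes, 2 transport members were lower, and KIF13A, KIF3C and KIF5B passed as higher, at 0.26, 0.32 and 0.28. The calls on small transport changes at 12 h therefore rest on the scaling.

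KIF1C, which moves vesicles and integrins, was the transport member that fell furthest. It had 6.54, 6.90 and 6.69 in CdCl 12 h cells and 7.44, 7.35 and 7.80 in control 12 h cells, and was 1.76-fold lower (log2 change -0.82 ± 0.12, SE, adjusted p 0.000182). The groups did not overlap, yet a second KIF1C probe set gave 0.35 (adjusted p 0.197).

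KIF13B, a motor that carries membrane proteins to the cell surface, had 5.28, 5.23 and 5.17 in CdCl 12 h cells and 5.76, 5.66 and 5.65 in control 12 h cells, a log2 change of -0.46 ± 0.07 (SE, adjusted p 0.000126). All CdCl arrays lay below all control arrays. KIF3B, a subunit of the kinesin-2 motor of cilia, changed by -0.32 ± 0.10 (SE, adjusted p 0.013), with 1 CdCl array level with the lowest control array. Its call was lost without CdCl 12 h replicate 3 (adjusted p 0.0585), without control 12 h replicate 2 (adjusted p 0.0586) and after centring on the tested genes (adjusted p 0.158). Its partner KIF3A gave -0.12 (adjusted p 0.567), and the mitochondrial and vesicle motor KIF1B gave -0.14 (adjusted p 0.281). Further probe sets differed from these: KIF3A gave 0.59 (adjusted p 0.042) by its second, and KIF1B gave 0.37 (adjusted p 0.00352) by one and -0.27 (adjusted p 0.0452) by another. The early endosome motor KIF16B gave 0.00, with a 95% interval of -0.19 to 0.20.

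Of the 5 other kinesins tested, 4 fell and 1 rose at 12 h, where 39.7% of all genes were lower and 16.7% higher. KIF2A, a microtubule depolymerase used in spindles and in neurons, had 9.67, 9.72 and 9.70 in CdCl cells and 10.09, 10.09 and 10.06 in control cells, a log2 change of -0.39 ± 0.07 (SE, adjusted p 0.000412). KIF12, which is expressed in renal tubules in the mouse, had 6.29, 5.80 and 6.00 in CdCl cells and 6.60, 6.42 and 6.51 in control cells, a log2 change of -0.48 ± 0.15 (SE, adjusted p 0.0158). KIF26B, which is needed for kidney development in the mouse, had 5.64, 5.62 and 5.52 in CdCl cells and 6.09, 5.95 and 6.11 in control cells, a log2 change of -0.46 ± 0.13 (SE, adjusted p 0.00858). All 3 genes were lower on every CdCl array than on any control array, as 46.6% of all genes tested were. KIF9 changed by -0.35 (adjusted p 0.00977).

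KIF21A, which restrains microtubule growth at the cell cortex, was the 1 kinesin that rose at 12 h. It had 10.46, 10.59 and 10.59 in CdCl cells and 10.28, 10.26 and 10.24 in control cells, a log2 change of 0.29 ± 0.08 (SE, adjusted p 0.0125). The mean over its probe sets gave 0.20 (adjusted p 0.0905). Centring on the tested genes ended the 12 h calls of KIF12 (adjusted p 0.0907), KIF26B (0.0576) and KIF9 (0.139). The KIF12 call was also lost without CdCl 12 h replicate 2 (adjusted p 0.0684) or without control 12 h replicate 1 (adjusted p 0.0555).

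**Figure D2:**
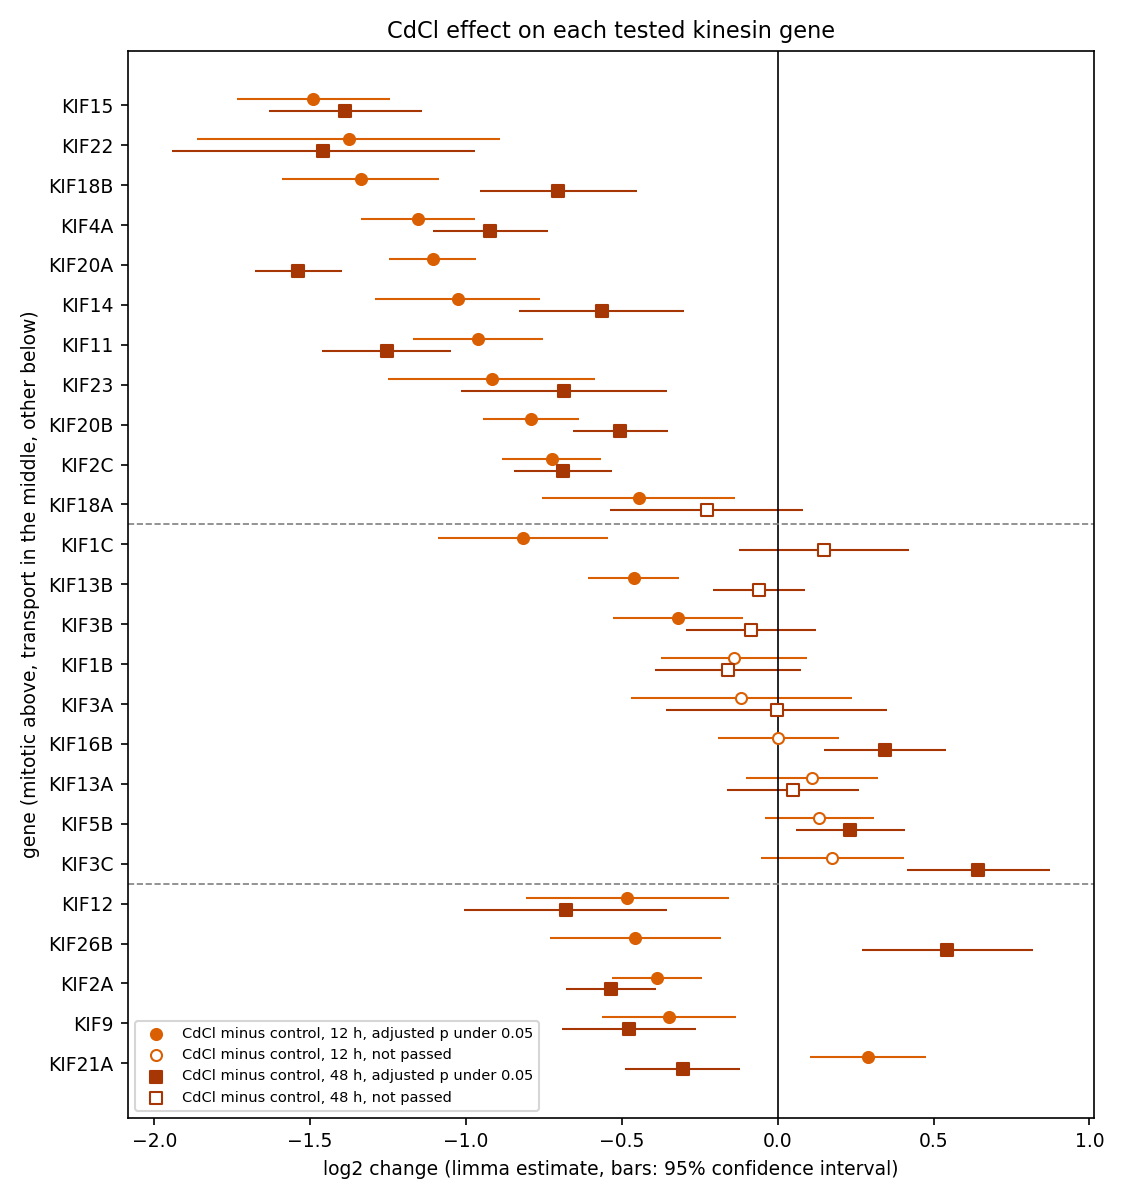
Log2 change of each of the 25 tested kinesin genes, CdCl minus control at 12 h (circles) and at 48 h (squares), with 95% confidence intervals; filled symbols had an adjusted p under 0.05. Mitotic genes (top) lie left of 0 at both times, and transport genes (middle) lie on either side of it.

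At 48 h, 10 of the 11 mitotic kinesins were lower in CdCl than in control cells and 0 were higher, with a median log2 change of -0.70. Over all genes tested 28% were lower and 26.5% higher, and the median was -0.02. Those 10 also had groups that did not overlap, as 30.9% of all genes did with CdCl below and 29.1% with CdCl above. The 48 h arrays are a second set for the same genes, and their control levels had themselves moved since 12 h.

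KIF20A had the largest measured mitotic fall at 48 h, with 6.20, 6.35 and 6.19 in CdCl cells and 7.80, 7.74 and 7.82 in control cells. It was 2.90-fold lower (log2 change -1.54 ± 0.06, SE, adjusted p 5.79e-09). KIF22 had 5.19, 6.10 and 5.21 in CdCl cells and 6.72, 6.94 and 7.22 in control cells, a log2 change of -1.46 ± 0.22 (SE, adjusted p 0.000174). The second KIF22 probe set did not pass here either (adjusted p 0.170), and 1 CdCl array stood above the other 2.

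KIF15 had 3.50, 3.47 and 3.38 in CdCl 48 h cells, all under the filter of 4, and 4.63, 4.99 and 4.89 in control 48 h cells. Taking 4 as the level in CdCl cells, it was at least 1.79-fold lower (adjusted p 1.15e-06). KIF11 had 6.70, 6.38 and 6.56 in CdCl cells and 7.62, 7.92 and 7.86 in control cells, a log2 change of -1.25 ± 0.10 (SE, adjusted p 6.95e-07). KIF4A had 6.35, 6.14 and 6.14 in CdCl cells and 7.20, 7.20 and 7.00 in control cells, a log2 change of -0.92 ± 0.08 (SE, adjusted p 3.01e-06). In all 3 the CdCl arrays lay below every control array.

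KIF18B, KIF23, KIF2C, KIF14 and KIF20B also fell, by log2 changes between -0.70 and -0.50. The second KIF23 probe set, whose signal averaged 3.50 over the 12 arrays, gave 0.02 (adjusted p 0.96). KIF18A was the member that did not pass, with 6.60, 6.41 and 6.19 in CdCl cells and 6.38, 6.75 and 6.74 in control cells. Its groups overlapped, and its log2 change of -0.23 had a 95% interval of -0.54 to 0.08.

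Among the transport kinesins at 48 h, 3 of 9 rose, 0 fell and 6 did not pass, where 26.5% of all genes were higher and 28% lower. The transport median of 0.05 was near that of all genes. Further probe sets of members that did not pass differed. KIF1B gave -0.40 (adjusted p 0.00738) by one and 0.30 (adjusted p 0.0115) by another. KIF13A gave -0.34 (adjusted p 0.0429) and KIF3B gave -0.23 (adjusted p 0.0472) by a second. KIF3C, the kinesin-2 subunit that pairs with KIF3A, had 6.46, 6.15 and 6.28 in CdCl cells and 5.74, 5.77 and 5.44 in control cells, 1.56-fold higher (log2 change 0.64 ± 0.10, SE, adjusted p 0.000278). KIF16B had 8.37, 8.22 and 8.17 in CdCl cells and 7.93, 7.90 and 7.89 in control cells, a log2 change of 0.35 ± 0.09 (SE, adjusted p 0.00633). Both were higher on every CdCl array, though the second KIF16B probe set gave 0.08 (adjusted p 0.762).

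KIF5B, the ubiquitous heavy chain of conventional kinesin, had 11.68, 11.43 and 11.63 in CdCl cells and 11.28, 11.47 and 11.29 in control cells, a log2 change of 0.23 ± 0.08 (SE, adjusted p 0.0276). Its groups overlapped, its other 2 probe sets did not pass, and its adjusted p was 0.0602 with each array centred on its median and 0.0844 with the 48 h arrays alone. The call was also lost without CdCl 48 h replicate 1 or 3 (adjusted p 0.106 and 0.0808) or control 48 h replicate 1 or 3 (0.095 and 0.0857). KIF1C, lower at 12 h, gave 0.15 at 48 h (adjusted p 0.335), and KIF3A gave an interval of -0.36 to 0.35.

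Of the other kinesins, 4 fell and 1 rose at 48 h, where 28% of all genes were lower and 26.5% higher. KIF12 had 6.22, 6.21 and 6.36 in CdCl cells and 7.29, 6.77 and 6.77 in control cells, 1.60-fold lower (log2 change -0.68 ± 0.15, SE, adjusted p 0.00224). KIF2A had 9.44, 9.28 and 9.34 in CdCl cells and 9.81, 9.89 and 9.97 in control cells, a log2 change of -0.54 ± 0.07 (SE, adjusted p 3.35e-05). These genes, with KIF9 at -0.48 (adjusted p 0.00149), were below control on every array at both times. The share of all genes below at both times was not counted.

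KIF26B moved the other way at 48 h than at 12 h. It had 7.11, 6.93 and 7.00 in CdCl 48 h cells and 6.20, 6.41 and 6.80 in control 48 h cells, 1.46-fold higher (log2 change 0.54 ± 0.13, SE, adjusted p 0.00313). KIF21A, higher at 12 h, was lower at 48 h, with 9.96, 9.85 and 10.16 in CdCl cells and 10.30, 10.38 and 10.19 in control cells (adjusted p 0.00951). In both genes the groups stayed apart at each time and changed places between them, by the chosen probe set. The second KIF21A probe set passed at neither time, at 0.10 (adjusted p 0.584) at 12 h and -0.21 (adjusted p 0.268) at 48 h.

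**Figure D3:**
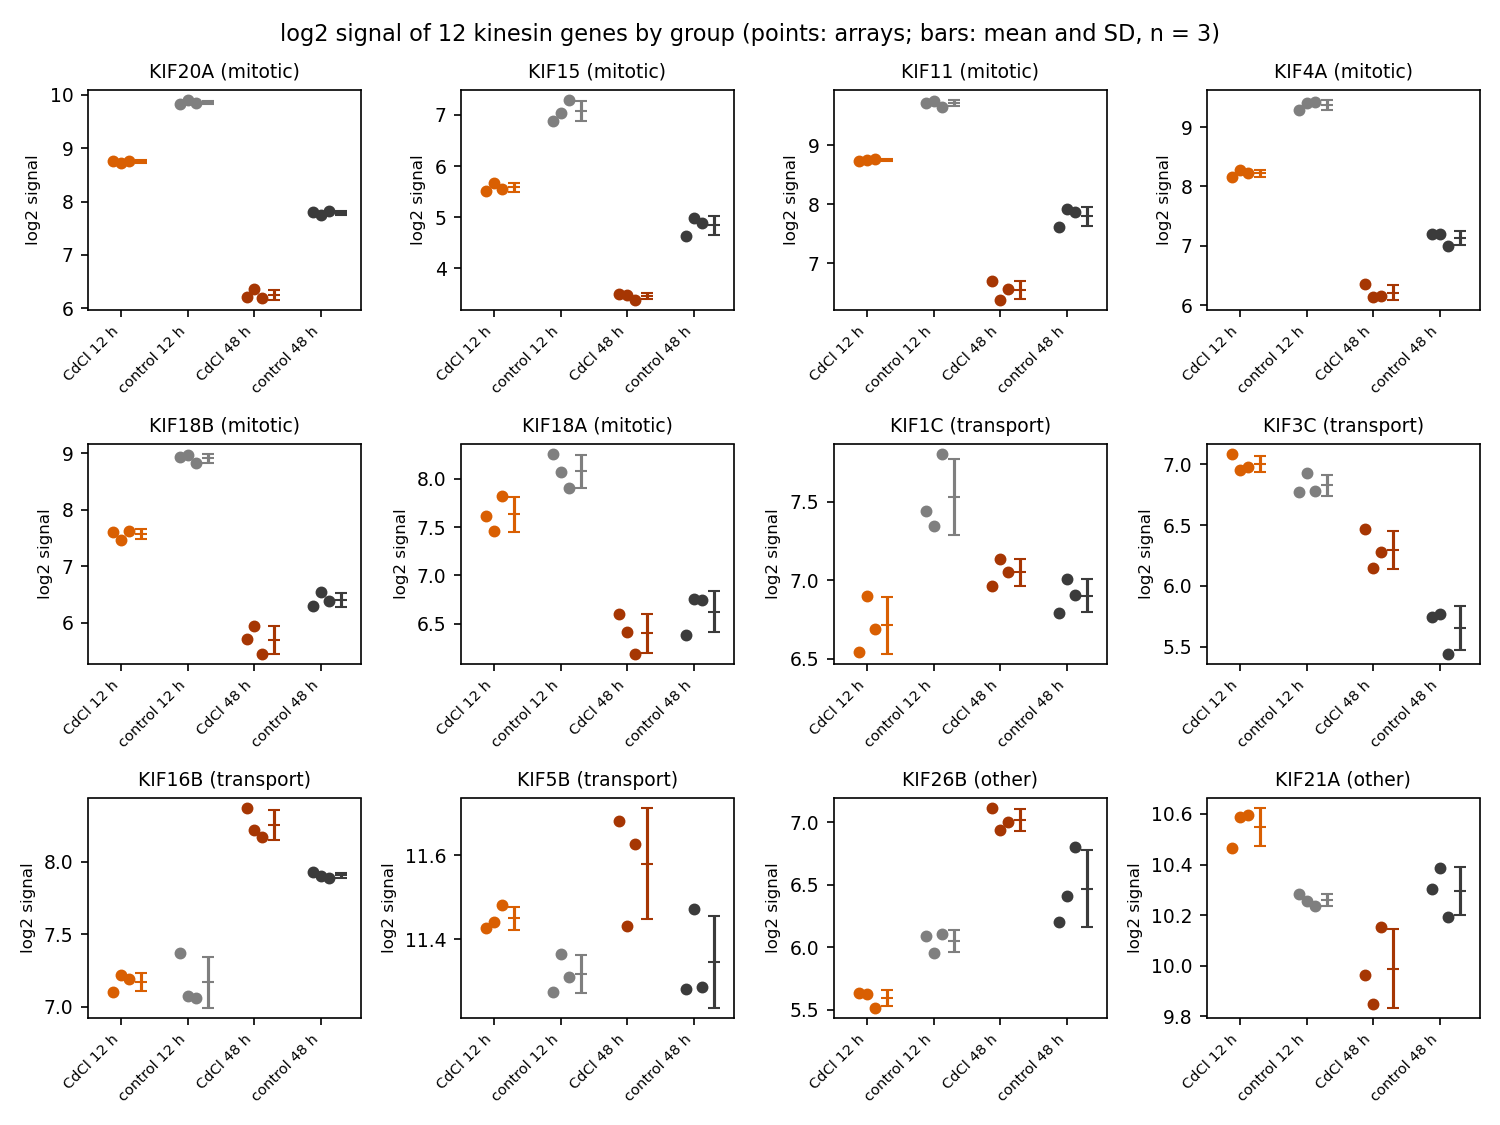
Log2 signal of 12 kinesin genes on each array (points, n = 3 per group), with the mean and SD beside them, in CdCl and control cells at 12 h and then at 48 h. KIF20A, KIF15, KIF11, KIF4A and KIF18B share 1 order of group means, lowest with CdCl at 48 h, while KIF1C, KIF3C, KIF16B, KIF26B and KIF21A each follow another pattern.

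The CdCl effect at 48 h minus that at 12 h tested whether the effect differed between the times. Over all genes this difference passed for 40.1%, below 0 for 13% and above 0 for 27%. Of the mitotic kinesins, KIF20A passed below 0 (-0.43 ± 0.09, adjusted p 0.00295), so its fall was larger at 48 h. KIF18B (0.63 ± 0.16, adjusted p 0.00967), KIF14 (0.46 ± 0.17, adjusted p 0.0496) and KIF20B (0.29 ± 0.10, adjusted p 0.0381) passed above 0, so their falls were smaller at 48 h. The other 7 did not pass. Second probe sets differed for KIF14, at 0.33 (adjusted p 0.117), and for KIF23, at 1.47 (adjusted p 0.00872). The mean of the KIF23 probe sets gave 0.85 (adjusted p 0.00811). After centring on the tested genes, only KIF18B remained above 0, and KIF11 joined KIF20A below it, at -0.42 (adjusted p 0.0221).

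Among the transport kinesins 4 passed above 0 and 0 below. They were KIF1C (0.97 ± 0.18, adjusted p 0.00135), KIF3C (0.47 ± 0.15, adjusted p 0.0257), KIF13B (0.40 ± 0.09, adjusted p 0.00592) and KIF16B (0.34 ± 0.13, adjusted p 0.049). The KIF1C call rested on 1 probe set. Its second gave -0.78 (adjusted p 0.0655), and the mean of all its probe sets gave 0.08 (adjusted p 0.511). Centring on the tested genes left KIF1C and KIF13B, with KIF3C at an adjusted p of 0.081 and KIF16B at 0.163. Of the other kinesins, KIF26B gave 1.00 ± 0.18 (adjusted p 0.00115) and KIF21A gave -0.59 ± 0.12 (adjusted p 0.0025). The second KIF21A probe set gave -0.31 (adjusted p 0.27). The same centring added KIF2A below 0, at -0.28 (adjusted p 0.034). The classes as wholes did not separate in this difference, with medians of 0.22 for mitotic and 0.23 for transport members, against 0.13 for all genes.

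The mitotic kinesins were also lower at the later time without CdCl. In control cells at 48 h against control cells at 12 h, all 11 fell, each by 2-fold or more, with a median log2 change of -2.07. Over all genes 33.5% were lower and 23.4% higher, with a median of -0.06. All 11 were apart at the array level, as 37.1% of all genes were in that direction. These comparisons share the control arrays with those above, so the values are given side by side and not as independent support.

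KIF18B had 6.30, 6.55 and 6.38 in control 48 h cells and 8.93, 8.97 and 8.83 in control 12 h cells, 5.65-fold lower (log2 change -2.50 ± 0.12, SE, adjusted p 1.18e-08). KIF14 had 7.31, 7.46 and 7.47 in control 48 h cells and 9.72, 9.83 and 9.85 in control 12 h cells, a log2 change of -2.39 ± 0.12 (SE, adjusted p 2.32e-08). KIF23 had 6.84, 7.03 and 6.75 in control 48 h cells and 9.07, 9.27 and 9.19 in control 12 h cells, a log2 change of -2.30 ± 0.15 (SE, adjusted p 1.81e-07). No array of either group came within 1 log2 unit of the other. KIF22 and KIF18A had the smallest falls, at -1.31 and -1.45, and the second KIF22 probe set did not pass (-0.32, adjusted p 0.359).

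In CdCl cells at 48 h against CdCl cells at 12 h all 11 mitotic members fell again, with a median log2 change of -1.93, where 27.6% of all genes were lower and 34.7% higher. KIF20A had the largest measured fall, 5.65-fold. For 10 of the 11 mitotic kinesins the mean was lowest with CdCl at 48 h, next in control cells at 48 h, then with CdCl at 12 h, and highest in control cells at 12 h, the exception being KIF22, whose control 48 h mean lay above its CdCl 12 h mean. For 9 of the 11 no arrays overlapped at any step, KIF18A being the other exception. The same order held for 1 of 9 transport members by mean (KIF1B), with overlap, and for 0 of the 5 others. How many of all genes had this order, or arrays apart at every step, was not counted.

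On the scale of class medians, relative to control 12 h means, the mitotic members stood at -1.09, -1.08 and -0.99 on the CdCl 12 h arrays and at -0.03, 0.04 and -0.01 on the control 12 h arrays. They stood at -3.02, -3.19 and -3.05 on the CdCl 48 h arrays and at -2.10, -2.08 and -2.03 on the control 48 h arrays. The 4 groups were thus separate in this median. The transport median stayed between -0.26 and 0.02 on all 12 arrays.

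**Figure D4:**
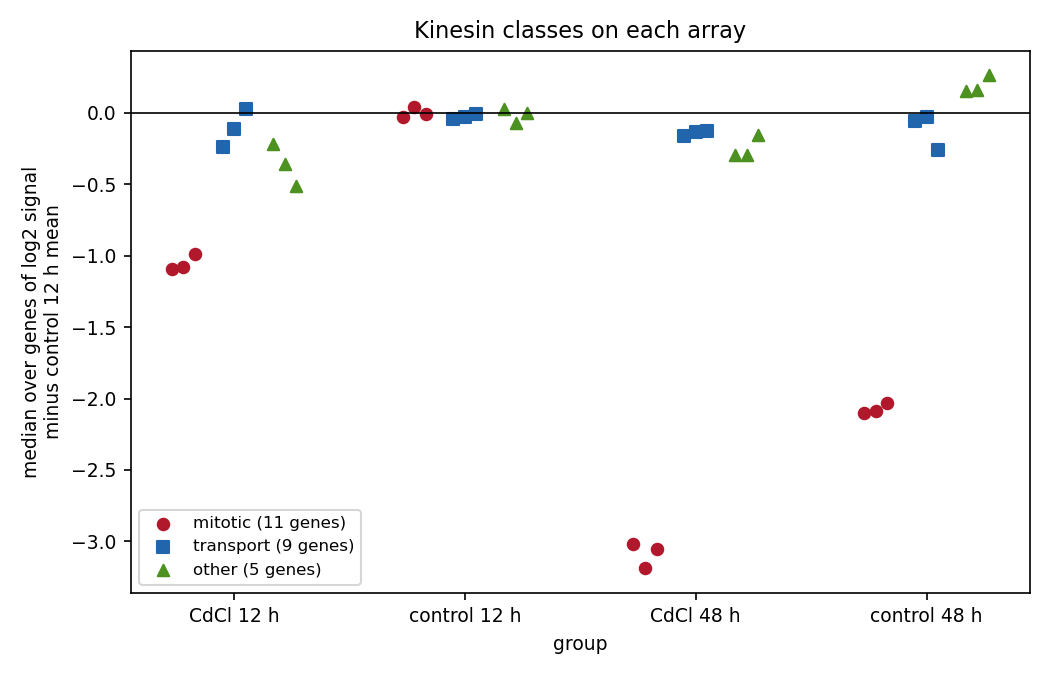
Median over the tested genes of each kinesin class of the log2 signal minus the control 12 h mean, 1 point per array, in the 4 groups. The mitotic median steps down to about the -3 line in CdCl 48 h cells, while the transport median stays near 0 in every group.

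In control cells 4 of 9 transport members fell and 2 rose between the times, and in CdCl cells 2 fell and 3 rose, numbers near those that the shares of all genes would give for 9 genes. KIF3C fell in control cells (log2 change -1.17 ± 0.10, adjusted p 2.17e-06) and in CdCl cells (-0.71 ± 0.10, adjusted p 9.95e-05). KIF3A rose in both, by 0.86 in control cells and 0.97 in CdCl cells (adjusted p 0.000748 and 0.000247). Its second probe set gave 1.15 in control cells (adjusted p 0.00103) and 0.50 in CdCl cells (adjusted p 0.074). KIF16B rose by 0.74 in control cells and 1.08 in CdCl cells, and its second probe set gave 0.42 (adjusted p 0.0796) and 0.79 (adjusted p 0.00319). KIF1C fell in control cells (-0.63, adjusted p 0.00106), and in CdCl cells its change was 0.34 (adjusted p 0.0326), whereas its second probe set gave -1.05 (adjusted p 0.00125). KIF26B rose in CdCl cells by 1.42 ± 0.13 (adjusted p 1.49e-06) and in control cells by 0.42 (adjusted p 0.0135).

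Transcripts of proteins that work with the mitotic kinesins moved in the same direction. Of 15 listed partners 13 were tested, and 13 fell at 12 h, 13 at 48 h and 13 with time in control cells. In these comparisons 39.7%, 28% and 33.5% of all genes tested were lower. The median log2 changes of the partners were -0.86, -0.65 and -1.89, against -0.16, -0.02 and -0.06 for all genes. HMMR, a spindle assembly factor, changed by -1.32 at 12 h and -1.10 at 48 h. CDCA8 and AURKB, subunits of the chromosomal passenger complex that KIF20A carries, changed by -1.19 and -1.05 at 12 h. NUSAP1, which bundles spindle microtubules, changed by -1.45 at 48 h, and ANLN, a scaffold of the contractile ring, by -1.09. The list was drawn up with earlier results of these arrays known.

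Other motors and cargo adaptors were called at shares to be read against those of all genes, of which 39.7% were lower and 16.7% higher at 12 h and 28% lower and 26.5% higher at 48 h. Of 13 genes for C-terminal kinesins and kinesin light or accessory chains 12 were tested, with 4 lower and 1 higher at 12 h and 2 lower and 1 higher at 48 h. KIFC1, a C-terminal motor that focuses spindle poles, changed by -0.92 at 12 h, while the light chain KLC1 changed by 0.96 and the mitochondrial adaptor TRAK1 by -0.69 at 48 h. Of 25 dynein and dynactin genes 23 were tested, with 10 lower and 0 higher at 12 h and 5 lower and 4 higher at 48 h. The adaptor BICD1 had a log2 change of -1.59 at 48 h and the heavy chain DYNC1H1 one of 0.89. The median changes of the dynein and dynactin genes, -0.14 at 12 h and 0.01 at 48 h, were near those of all genes, -0.16 and -0.02. Of 14 intraflagellar transport genes, whose trains kinesin-2 pulls, 13 were tested, with 7 lower and 0 higher at 12 h and 5 lower and 4 higher at 48 h. IFT81 was lower at both times, 2.00-fold at 12 h (adjusted p 7.45e-05) and by a log2 change of -0.93 at 48 h.

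Regulators of the cell cycle genes were read beside them. Of 13 listed, 10 were tested, with 7 lower and 2 higher at 12 h and 7 lower and 3 higher at 48 h. Of all genes tested, 39.7% were lower and 16.7% higher at 12 h, and 28% lower and 26.5% higher at 48 h. FOXM1, an activator of G2 and M genes, changed by -1.47 at 12 h and -1.13 at 48 h, and MYBL2, which acts through the cell cycle homology region, by -0.78 and -0.45. CDKN1A, the inhibitor of cyclin-dependent kinases known as p21, changed by 1.00 at 12 h and 1.08 at 48 h. Subunits of the complexes that repress cell cycle genes in resting cells went both ways at 48 h, with LIN37 at 0.87 and LIN52 at 0.38, and RBL1 at -0.89, LIN9 at -0.75, RBBP4 at -0.72 and RBL2 at -0.33. TFDP1, also on the list, was lower at both times. It averaged 9.64 with CdCl and 10.61 with control at 12 h, and 8.49 and 9.51 at 48 h. Whether these changes bear on the kinesins was not tested.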

How the data were processed

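The values are log2 signals of 12 Affymetrix arrays, deposited as 1 table by the authors and made with GCRMA (background correction, quantile normalization and summary per probe set), per the submitters' processing notes (version not given in the sources used here). GCRMA sets dim probe sets near a common floor, which understates the change of low genes. Of 54675 probe sets, 62 were controls, 41091 had 1 gene symbol, 1801 had several and 11783 had none; 41037 were matched to the current gene table by gene ID and 0 symbols changed.

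Genes were represented by the probe set of highest mean and kept when above 4 on at least 3 arrays. limma 3.58.1 (R 4.3.3) fitted 4 group means over all 12 arrays, with 5 contrasts, empirical Bayes variances and Benjamini-Hochberg adjustment over the 10683 genes tested at 0.05. Precision is limited by 3 arrays per group. The fit was tested on simulated data with 200 changed genes: at 12 h it recovered 68% of log2 changes of 0.5 and 98% of changes of 1. It recovered 6% of changes of 0.25 at 12 h. For the difference between times it recovered 26% of changes of 0.5 and 88% of changes of 1, so smaller differences there are mostly missed.

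The genes described singly were the 5 mitotic and 4 remaining kinesins of largest called change per CdCl comparison, the 3 of largest change with time in control cells, and others named after their values were seen. The kinesin classes, partner lists and motifs were chosen with earlier results of these data known. Alternatives covered array scaling, the filter, the probe set rule, the replicate block, the arrays entering the fit and leaving out each array.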

Additional observations from a re-analysis of the deposited data

Results flagged for a closer look

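The CdCl effect differed between 48 h and 12 h for 10 kinesins, by the difference of the 2 log2 effects (48 h minus 12 h, limma, adjusted p under 0.05). It was above 0 for KIF26B (1.00), KIF1C (0.97), KIF18B (0.63), KIF3C (0.47), KIF14 (0.46), KIF13B (0.40), KIF16B (0.34) and KIF20B (0.29). It was below 0 for KIF21A (-0.59) and KIF20A (-0.43). Over all genes tested 40.1% passed this test, so 10 of 25 kinesins is close to the background share. KIF26B and KIF21A had called effects of opposite sign at the 2 times by their chosen probe sets. The second probe set did not pass this test for KIF21A (-0.31, adjusted p 0.27) and went the other way for KIF1C (-0.78, adjusted p 0.0655).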

How the results depend on the processing

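Of 86 calls on single kinesins, 66 were kept under every alternative run. Mitotic members lower numbered 10 to 11 of 11 at 12 h and 10 at 48 h when single arrays were left out, and 11 with time in control and in CdCl cells. Leave-one-out ranges were 2 to 3 transport members lower at 12 h, 2 to 3 higher at 48 h, 3 to 4 lower with time in control cells and 2 to 4 higher with time in CdCl cells. For the difference between times they were 1 to 2 mitotic members below 0, 1 to 3 above 0 and 2 to 4 transport members above 0. The mitotic count below 0 was 2 without CdCl 48 h replicate 1 or control 48 h replicate 1. The mitotic count above 0 was 1 without any single CdCl 12 h replicate, CdCl 48 h replicate 3, control 12 h replicate 2 or control 48 h replicate 1. The transport count was 2 without CdCl 12 h replicate 2 or 3, CdCl 48 h replicate 1 or control 48 h replicate 3.

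The number of transport members higher at 12 h was 0, but 1 after quantile normalization (KIF3C, 0.26, adjusted p 0.0332) and 3 after centring on the tested genes. For the difference between times, mitotic members above 0 numbered 3, but 1 with each array centred on its median, 1 with the replicate block and 1 after centring on the tested genes, which also gave 2 mitotic members below 0 and 2 transport members above 0. Without the filter on low values 2 transport members were above 0. KIF1C between CdCl cells at 48 h and 12 h reversed to -0.22 (adjusted p 0.0123) with the mean of all probe sets, 1 of which was under the filter on every array, and its 12 h call was then lost (-0.17, adjusted p 0.0518). The same mean ended the 48 h calls of KIF16B (0.21, adjusted p 0.0568) and KIF23 (-0.33, adjusted p 0.0786) and the 12 h call of KIF9 (-0.15, adjusted p 0.0648); KIF9 also had 1 probe set under the filter on every array, and the second probe set of KIF23 averaged 3.50. The causes were not tested.

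No shared deviation was visible among same-numbered arrays of different groups (18 correlations from -0.336 to 0.158, median -0.0192). With so few arrays per group, these correlations cannot decide whether same-numbered arrays were handled as a set. With the replicate block, mitotic members lower numbered 11 at 12 h and 10 at 48 h, the 48 h call of KIF5B was lost (adjusted p 0.051), and for the difference between times those of KIF14, KIF16B and KIF20B were lost (adjusted p 0.0589, 0.0568 and 0.0506). Of 17 second probe sets tested, 7 gave the same call at 12 h and 6 at 48 h. Signals under 4 carry only bounds.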
